A study of Mus musculus with 39 samples.

Results

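The genes described here encode the proteins of the cytosolic ribosome. Members were taken by symbol alone, as every gene in the deposited count table named Rpl or Rps followed by a number, with or without a final a, x or y, together with Rplp0, Rplp1 and Rplp2. The rule found 74 of 16358 genes, of which 45 belong to the large subunit and 29 to the small subunit. It used no measured value. Ribosomal proteins filed under other names (such as Rpsa, Rps3a1 and Fau) fell outside the rule and are given only for comparison.

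The tissue was whole duodenum of wild-type male C57BL/6 mice, 8 weeks old, all of which carried a cannula in a lateral brain ventricle and had been without food for 2 h before injection. The Saline-water and Leptin-water groups drank plain water, whereas the Saline-antibiotic and Leptin-antibiotic groups received 1 g/L ampicillin with 0.5 g/L neomycin in their water during 48 h. Leptin, a hormone of adipose tissue that signals energy stores to the brain, was given into the ventricle at 3 µg per mouse, saline was the control, and tissue was taken 2 h later. The 39 libraries fall into 2 sets by the names in their labels, here called set M (8 Saline-water and 7 Leptin-water) and set MT (6 of each of the 4 groups). The labels do not say what distinguishes the sets, nor that each library is a separate animal, so p-values measure the spread between these samples, which may be partly technical.

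The cytosolic ribosome joins a small subunit, which reads the mRNA, to a large subunit, which forms the peptide bond, and each subunit is built of ribosomal RNA and many different proteins. The mRNAs of these proteins begin with a run of pyrimidines at the cap (the 5′ terminal oligopyrimidine, or TOP, motif), through which the kinase complex mTORC1 and the protein LARP1 set how much of each is translated in step with nutrients and growth. That control acts mainly on translation, which mRNA levels such as those measured here do not report. The duodenal epithelium, which renews itself continually and secretes much protein, depends on a steady supply of ribosomes.

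Some short words were more frequent in the promoters of these genes than in those of all genes. RefSeq held a promoter (build GRCm38.p6, 250 bases before to 50 after the start) for 54 of the 74 members. The word CTCTTTC was found on either strand in 27.8% of these promoters and in 8.01% of those of all 27025 genes in the same table. The word CCGGAAG, the core bound by ETS factors, was found in 37% against 9.12%, and the palindrome TCGCGA in 20.4% against 2.58%. The shorter pyrimidine word CTTTCC was found in 46.3% against 26.3%, and can overlap CTCTTTC. The GC box, GGGCGG, was found in 59.3% against 35.9%, and CACGTG, the E-box bound by MYC, in 9.26% against 7.24%. The words were kept after their shares had been seen, and a match describes the letters only. The windows below show 50 bases before and 20 after the annotated start, 5′ to 3′ on the gene's strand, for 5 of the members that were higher in set MT, 4 that were lower there, and Rplp0. Capitals mark the 2 pyrimidine words, the ETS word and the palindrome, on either strand.
Rps12 (chr10:23787190-23787259, minus strand): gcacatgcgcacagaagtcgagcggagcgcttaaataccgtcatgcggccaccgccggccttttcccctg
Rpl10 (chrX:74270766-74270835, plus strand): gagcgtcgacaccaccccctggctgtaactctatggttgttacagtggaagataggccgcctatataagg
Rpl35a (chr16:33056403-33056472, plus strand): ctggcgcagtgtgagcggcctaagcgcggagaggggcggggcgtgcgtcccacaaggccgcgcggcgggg
Rps26 (chr10:128626487-128626556, minus strand): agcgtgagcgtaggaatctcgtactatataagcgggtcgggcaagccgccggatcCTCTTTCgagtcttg
Rpl35 (chr2:39005112-39005181, minus strand): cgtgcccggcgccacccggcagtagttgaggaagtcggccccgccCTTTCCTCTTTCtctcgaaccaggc
Rpl41 (chr10:128549149-128549218, minus strand): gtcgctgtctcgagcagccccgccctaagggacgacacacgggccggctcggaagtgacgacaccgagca
Rpl38 (chr11:114668530-114668599, plus strand): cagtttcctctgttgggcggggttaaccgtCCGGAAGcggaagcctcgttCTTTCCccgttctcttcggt
Rps28 (chr17:33824543-33824612, minus strand): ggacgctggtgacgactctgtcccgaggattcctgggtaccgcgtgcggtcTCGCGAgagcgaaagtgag
Rpl12 (chr2:32961662-32961731, plus strand): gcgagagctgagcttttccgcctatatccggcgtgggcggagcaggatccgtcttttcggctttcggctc
Rplp0 (chr5:115559417-115559486, plus strand): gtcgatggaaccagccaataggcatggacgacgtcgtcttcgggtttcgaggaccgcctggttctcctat
The pyrimidine words of Rps26, Rpl35 and Rpl38 lie at or within a few bases of the annotated start, Rpl38 also has an ETS word, and Rps28 has the palindrome. The windows of Rps12, Rpl10, Rpl35a, Rpl41, Rpl12 and Rplp0 hold none of the 4 words in capitals, so neither the higher nor the lower members shown have one word in all their windows.

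Library totals were 30207536 to 67870777 counts, and the ribosomal RNA gene Rn45s took 2.87% to 13.3% of them. The 9 duodenal enterocyte markers were detected in every library, at a summed 14120 to 32350 CPM (counts scaled to a common library size, with TMM factors). The mean of the exocrine pancreas genes exceeded 4 log2 CPM in 6 libraries, 3 of Saline-antibiotic (1, 2 and 5), 2 of Leptin-water (6 and 10) and Leptin-antibiotic 3. In bulk tissue, fewer cells of a type and less RNA per cell cannot be told apart.

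One library stood apart, in its ribosomal protein genes and over the whole table, and is described before the comparisons. In Saline-water 13, of set MT, the differences of the 74 genes from the mean of the other 5 libraries of its group had an SD of 0.575 on the log2 scale, against a median of 0.119 over all 39 libraries. In this library 35 members lay below and 3 above all 38 other libraries, 51.4% of the members against 26.6% of the 9917 genes with a mean of at least 3 log2 CPM. The SD of its differences over those 9917 genes was 0.374. Both this SD and the 26.6% were the highest of the 39 libraries. Rpl39, a small protein at the wall of the exit tunnel, had 11.3 CPM, whereas the other 5 of the group had 47.3 to 73.1 CPM. Rpl37a, a zinc-binding protein of the large subunit, had 15.8 CPM against 59.6 to 77.0. Rpl38, Rpl23a and Rps9 were lower than their group mean by more than 1 log2 unit as well, with log2 differences of −1.35, −1.24 and −1.16. In the opposite direction, Rps26, which lines the path of the mRNA as it leaves the small subunit, had 218 CPM against 76.7 to 118. Rpl35, at the mouth of the exit tunnel, had 198 CPM against 73.2 to 109, and Rpl29 had 50.1 against 24.3 to 32.5. The members below all other libraries had a median transcript length of 751 bases and a GC content of 51.9%, and the 36 within the range of the others had 680 bases and 52.1%. The median share of 50-base words that also occur in transcripts of other genes was 64.7% for those below and 51.7% for those within. It was 40.1% for the 3 above. The total of this library (41831957 counts), its Rn45s share (10.6%) and its pancreas mean (−2.47 log2 CPM) lay within the range of the other libraries. Of 21 other gene lists 18 lay within that range too. The respiratory chain genes (mean of 5.88 log2 CPM, others 6.02 to 6.69) and the paralogs of ribosomal proteins (4.24, others 4.56 to 5.17) were lowest in this library, and the regional markers of duodenum (8.30, others 7.69 to 8.13) were highest. What set it apart was not tested. Values without it are given beside results of the members that it moved, and not for genes outside the rule.

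**Figure D1:**
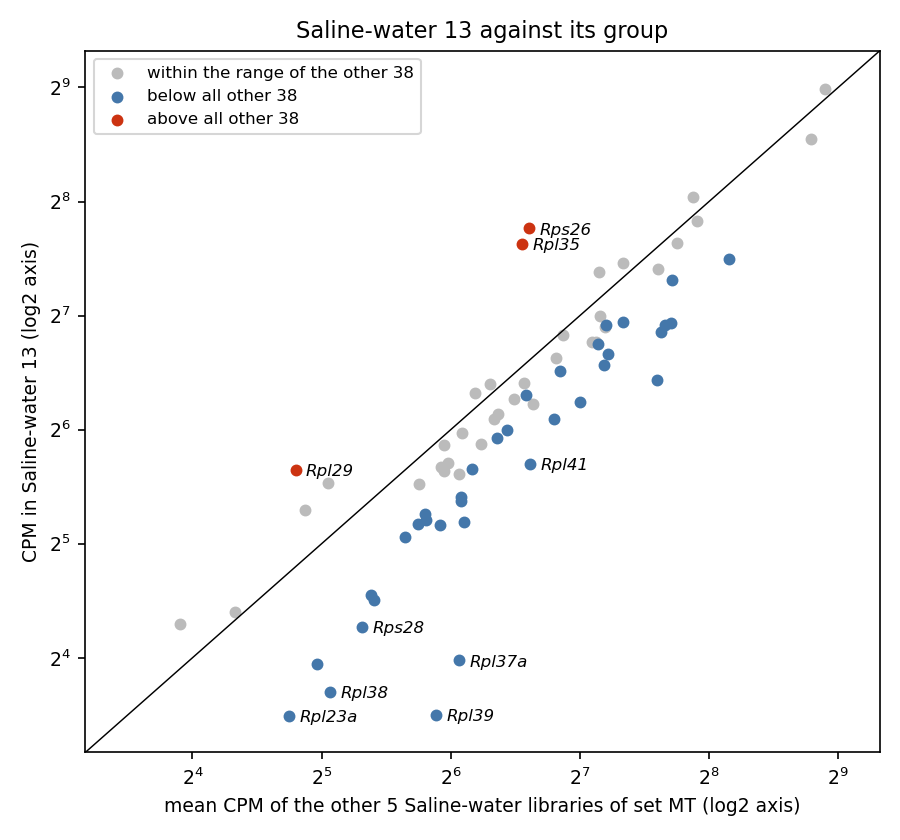
CPM of 71 ribosomal protein genes in Saline-water 13 (vertical) against their mean in the other 5 Saline-water libraries of set MT (horizontal), both on log2 axes; the line marks equal levels, and 3 genes with a mean under 5 CPM are left out. Blue points lie below all other 38 libraries and red points above them: Rpl39 and Rpl37a fall farthest under the line, and Rps26, Rpl35 and Rpl29 lie above it.

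Other libraries stood apart by a shift of many members in 1 direction. Saline-antibiotic 1 was above all others in 36 members, or 48.6%, where 19.8% of those 9917 genes were outside the range in either direction. It and Leptin-antibiotic 3 were among the 6 libraries high in pancreas genes. Of the same 6, Saline-antibiotic 2 and 5 had 4 and 10 of the 74 members above the mean of the other libraries of their group. Leptin-water 6 and 10 had 35 and 67. Saline-antibiotic 1 also had the highest means of the 39 libraries for stem and cycling markers (5.996 log2 CPM) and ribosome biogenesis genes (4.691). Their part was not tested. Leptin-antibiotic 3 was above all others in 22 members, or 29.7% against 22.8% of the genes. Leptin-antibiotic 2 was below all others in 13 members (17.6% against 9.24%) and Leptin-water 3 in 12 (16.2% against 4.03%). The median difference of the members from their group was 0.39 log2 units in Saline-antibiotic 1 and 0.34 in Leptin-antibiotic 3, against −0.26 in Leptin-antibiotic 2.

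Together the 74 genes held 0.672% to 1.21% of a library's counts without Rn45s, with a median of 0.862%. In set M the share was 0.888% ± 0.0642 (SD, n = 8) in Saline-water and 0.805% ± 0.0627 (n = 7) in Leptin-water. In set MT it was 0.877% ± 0.120 in Saline-water, 0.888% ± 0.0518 in Leptin-water, 0.926% ± 0.152 in Saline-antibiotic and 0.818% ± 0.105 in Leptin-antibiotic (n = 6 each). The groups overlapped throughout, and the highest value of all was that of Saline-antibiotic 1.

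**Figure D2:**
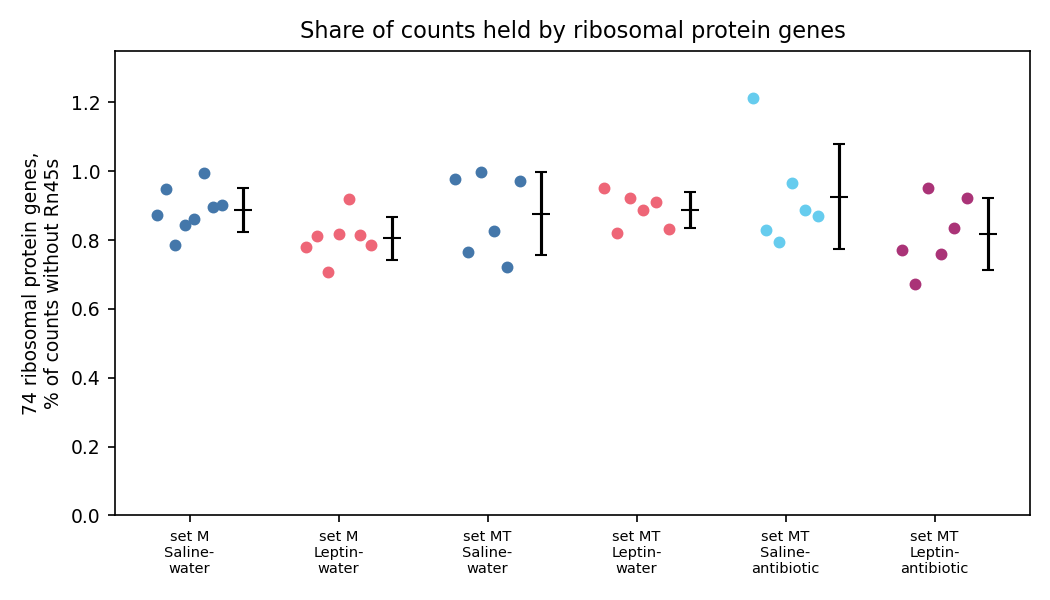
Percent of counts, Rn45s left out, held by the 74 ribosomal protein genes in each library (points), by set and group; the bar beside each group is its mean ± SD. All groups overlap, and Saline-antibiotic 1, at 1.21%, is the highest of the 39 libraries.

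Levels per kilobase of transcript differed widely between members although the ribosome holds most of them in equal numbers. The proteins of the stalk that recruits translation factors were the highest: Rplp1 had 451 ± 48.6 CPM per kb (SD, n = 39), Rplp0 339 ± 37.0 and Rplp2 334 ± 37.5. Rplp1 exceeded Rplp0 by more than the spread, whereas Rplp0, Rplp2 and Rps14 (328 ± 38), a small subunit protein, did not differ beyond theirs. The median of the 74 was 117 CPM per kb.

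At the other end were Rpl30 with 0.749 ± 0.210 CPM per kb, Rpl34 with 1.85 ± 0.456 and Rps27, a zinc-ribbon protein of the small subunit, with 2.36 ± 0.604. Their counts per library were 11 to 39 for Rpl30, 21 to 85 for Rpl34 and 12 to 76 for Rps27. The next lowest were Rpl21 at 16.7 ± 2.66 and Rpl17 at 24.2 ± 3.83 CPM per kb, so the lowest 3 stood below all the rest. Ribosomal protein genes have many near-identical processed copies in the genome, and the counting of reads that match several places is not given in the sources used here. In GENCODE vM21, 98.7% of the 50-base words of the Rps27 transcript also occur in transcripts of other genes, 47.8% of those of Rpl30 and 48.9% of those of Rpl34. The median member shared 56.5% of its words. Over the 74 genes the share of such words and the level per kb had a Spearman correlation of −0.174, a description across genes that share libraries and gene copies. Levels of members with shared sequence are uncertain to that extent.

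The genes were spread over 19 chromosomes. Of the 74, 28 host at least 1 small nucleolar RNA within the gene, 53 in all, which guide the modification of ribosomal RNA. Rpl4 held 5 and Rpl13a held 4. Coding lengths ran from 138 bases in Rpl41, the smallest protein of the ribosome, to 1257, with a median of 462.

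The spread between libraries of a set and group had a higher median over the members than over all genes above the same level. Among genes with a mean of at least 3 log2 CPM, the residual SD was a median of 0.188 over 71 members and 0.141 over all 9917 genes, not matched on level, or 0.170 for the members without Saline-water 13. Rpl13a (0.120), Rpl5 (0.126), Rpl22 (0.132), Rpl10a (0.136) and Rps6 (0.137), the substrate of the S6 kinases, varied least. Rpl39 (0.438), Rpl30 (0.380), Rpl37a (0.359), Rps27 (0.351) and Rps26 (0.316) varied most. Without Saline-water 13 the value was 0.229 for Rpl39 and 0.142 for Rpl37a.

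The first comparison asked what leptin did to these transcripts in mice on water, with set as a term and 27 water libraries. None of the 74 members passed an adjusted p of 0.05 in edgeR's quasi-likelihood test, where 0.312% of the 16356 genes tested did. DESeq2 and limma voom called none either, and 4 members had an unadjusted p under 0.05, or 5.41% against 11.4% of all genes. The fitted log2 fold change was negative for 67 members, against 52.9% of all genes, with a median of −0.054 against −0.0068 over all genes.

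Rpl13a, a large subunit protein also known from the silencing of inflammatory mRNAs, had the lowest adjusted p. It was lowest 196, median 219 and highest 257 CPM in Leptin-water of set M, against 219, 234 and 257 in Saline-water, and 196, 213 and 223 against 215, 240 and 263 in set MT. The groups overlapped in both sets, and the fitted change was −0.13 log2 units (SE 0.041, adjusted p = 0.173 by edgeR). Rpl36 (−0.21, SE 0.11), Rpl12 (−0.17, SE 0.057), at the base of the stalk, Rps21 (−0.17, SE 0.054) and Rpl27a (−0.15, SE 0.062) had the lowest fold changes. The highest were those of Rpl7a (0.064), Rpl37a (0.051), Rpl30 (0.046) and Rpl39 (0.035). Without Saline-water 13, Rpl37a came to −0.035, Rpl39 to −0.065, Rpl7a to 0.010 and Rpl30 to 0.081. The median of the members was −0.081 without that library, and −0.030 without Leptin-water 3.

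In set M alone, 73 of the 74 members had a negative log2 fold change with leptin, against 51.7% of all genes, and the median was −0.15 against −0.0050. edgeR called no member, where it called 0.0306% of 16333 genes, all of them higher. Of the members, 49 had an unadjusted p under 0.05, which is 66.2% against 14.9% of all genes. The members often moved together within a library. Of the 74, 5 lay above the mean of the other libraries of the group in Leptin-water 3 and 70 in Leptin-water 5. In Saline-water 3 and 6 it was 4 and 73. Counts of members, here and in the other comparisons, are therefore not counts of independent results. limma voom called 0 members and DESeq2 called 6, all lower, among 277 genes against 5 by edgeR.

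Rpl36, a large subunit protein, had the lowest fold change. It had a lowest value of 26.5, a median of 32.7 and a highest of 43.9 CPM in Saline-water, and 18.6, 23.6 and 29.1 CPM in Leptin-water. Of the 7 leptin libraries 4 lay below all saline libraries, and leptin changed its level by −0.46 log2 units in the fit (SE 0.11; adjusted p 0.117 by edgeR and 0.00850 by DESeq2). Without Saline-water 5 it passed in edgeR as well, at −0.51 with an adjusted p of 0.0379.

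Rps19, a small subunit protein mutated in Diamond-Blackfan anaemia, ran from 56.7 through a median of 66.4 to 86.2 CPM in Saline-water, and from 45.2 through 55.1 to 64.2 in Leptin-water. The fit gave −0.32 log2 units (SE 0.085; adjusted p 0.139 by edgeR and 0.0310 by DESeq2), with 5 of 7 leptin libraries below all saline libraries. Rps18, in the head of the small subunit, gave −0.30 (SE 0.083, adjusted p = 0.146 by edgeR and 0.0384 by DESeq2), with 6 of 7 below. Rpl14, singled out after its values were seen, was the 1 member whose groups did not overlap, where 0.22% of all genes did not. It had 83.7 to 108 CPM in Saline-water and 68.1 to 81.8 in Leptin-water, and its fitted change was −0.25 log2 units (SE 0.059, adjusted p = 0.110).

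Members with other known roles had smaller values in set M. The stalk proteins gave −0.11 (Rplp0, SE 0.052) and −0.15 (Rplp1, SE 0.069), and Rpl11 and Rpl5, which carry 5S ribosomal RNA into the large subunit, gave −0.20 (SE 0.080) and −0.057 (SE 0.046). Rps6 gave −0.096 (SE 0.049). None of these passed. Rpl34 (0.062) was the 1 member with a positive value. Smooth muscle markers moved with this contrast: all 8 had a positive log2 fold change with a median of 0.41, and their summed level was 1298 to 2023 CPM in Saline-water and 1209 to 2624 in Leptin-water. All 8 gastric and Brunner's gland markers had a negative one, with a median of −0.74 and a summed level of 15330 to 43670 against 1733 to 30470 CPM. No marker of these 2 lists was at 0, and their part in the result was not tested.

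In set MT the members had mostly positive values with leptin on water, 61 of 74 against 49.5% of all genes, with a median of 0.069 against −0.0013. No member and no other gene was called by edgeR (0%), and DESeq2 and limma voom called no member. At an unadjusted p under 0.05 was 1 member, against 7.31% of all genes: Rpl13a, which had a negative value (−0.18, SE 0.076). The highest values were those of Rpl39 (0.38, SE 0.25), Rps19 (0.30, SE 0.17), Rpl7a (0.30, SE 0.15) and Rpl23a (0.24, SE 0.16). Rps19 ran from 35.8 through a median of 56.4 to 74.1 CPM in Saline-water, its lowest value being Saline-water 13, and from 52.3 through 70.5 to 85.7 in Leptin-water. Without Saline-water 13 the median of the members was 0.020 with 44 of 74 positive and none at an unadjusted p under 0.05. Rpl39 then had 0.17, Rps19 0.20, Rpl7a 0.19 and Rpl23a 0.088, and Rpl35 turned from −0.076 to 0.16. All 8 smooth muscle markers had a negative value here, with a median of −0.34 and a summed level of 1551 to 2201 CPM in Saline-water against 908 to 1802 in Leptin-water. Of the 8 gastric and Brunner's gland markers 7 had a positive value, with a median of 1.22. Their mean was 5.57 to 8.09 log2 CPM in Saline-water and 8.29 to 9.53 in Leptin-water, without overlap, and their summed level was 8198 to 21610 against 6414 to 20810 CPM. No marker of either list was at 0, and the part of both was not tested.

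The median of the members thus had a different sign in the 2 sets, and the difference of the leptin effect was tested gene by gene as an interaction over the 27 water libraries. No member passed in edgeR, where 0.0428% of all genes did, nor in DESeq2 or limma voom. An unadjusted p under 0.05 was reached by 31 members, or 41.9% against 9.86% of all genes. The difference, set MT minus set M, was positive for 71 members against 51.8% of all genes, with a median of 0.24. The largest were those of Rps19 (0.63, SE 0.19, adjusted p = 0.216), Rpl39 (0.63, SE 0.30), Rpl36 (0.57, SE 0.20) and Rpl32 (0.52, SE 0.17). Without Saline-water 13 the median was 0.18, with 65 positive and 22 at an unadjusted p under 0.05, and Rpl39 came to 0.40.

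In mice on antibiotic, leptin left no member past the threshold in edgeR, DESeq2 or limma voom, where edgeR called 0.514% of all genes. The median of the members was −0.067 against −0.017 over all genes, 59 of 74 were negative against 53.6%, and 1 had an unadjusted p under 0.05, against 17.2% of all genes. That member was Rps12, a small subunit protein of the beak. It had a lowest value of 62.9, a median of 74.4 and a highest of 95.1 CPM in Saline-antibiotic, and 43.9, 62.6 and 70.3 in Leptin-antibiotic. The groups overlapped, and the fitted difference was −0.30 log2 units (SE 0.13, adjusted p = 0.253 by edgeR). Rps14 (0.11, SE 0.11) and Rpl39 (0.085, SE 0.25) had the highest values. Single libraries moved the median: it was −0.015 without Saline-antibiotic 1 and −0.12 without Leptin-antibiotic 3. All 11 pancreas genes tested had a negative value in this contrast, with a median of −1.04 and a summed level of 11.5 to 1232 CPM in Saline-antibiotic against 14.1 to 1281 in Leptin-antibiotic. Of these, 1 gene in the former and 2 in the latter group were at 0 in some library. The fit without the libraries high in pancreas genes called no member either, and the part of these genes was not tested further.

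The antibiotic comparison in saline mice asked what ampicillin and neomycin did without leptin. No member passed in edgeR, where 0.196% of all genes did, nor in DESeq2 or limma voom. An unadjusted p under 0.05 was reached by 10 members, or 13.5% against 12.5% of all genes. Of the 74, 69 had a positive log2 fold change against 51.8%, with a median of 0.13 against 0.0075. Rpl34, with few counts, was the 1 member without overlap (0.716% of all genes): it had 0.516 to 0.915 CPM on water and 0.958 to 1.22 on antibiotic, or 0.53 log2 units in the fit (SE 0.20, adjusted p = 0.268). Rpl30 (0.35, SE 0.28), Rpl23a (0.35, SE 0.16) and Rpl41 (0.33, SE 0.12) followed. Rpl41 had a lowest value of 52.0, a median of 93.7 and a highest of 112 CPM on water, the lowest again Saline-water 13, and 97.2, 110 and 139 CPM on antibiotic. Without Saline-water 13 the median of the members was 0.068, with 58 positive and 4 at an unadjusted p under 0.05, and Rpl41 came to 0.21 and Rpl23a to 0.20. Without Saline-antibiotic 1 the median was 0.058. Pancreas genes were higher on antibiotic in all 11 cases, by a median of 3.44, with a summed level of 11.6 to 160 CPM on water and 11.5 to 1232 on antibiotic. Of the 11, 6 were at 0 in some library on water and 1 on antibiotic. The fit without the libraries high in pancreas genes called no member either, and the part of these genes was not tested further.

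In leptin mice the antibiotic left the members centred on 0, with a median of −0.0077 against −0.010 over all genes and 32 positive, where 47.8% of all genes were. No member passed in edgeR, DESeq2 or limma voom, and by edgeR none had an unadjusted p under 0.05, where 2.28% of all genes were called and 18.9% had such a p. In the same fit, 5 of 79 respiratory chain genes and 1 of 78 mitochondrial ribosomal protein genes rose, with medians of 0.22 and 0.088. All 9 duodenal enterocyte markers had a positive value there, with a median of 0.54 and a summed level of 16140 to 23670 CPM in Leptin-water and 21450 to 32350 in Leptin-antibiotic. All 8 smooth muscle markers were positive too, with a median of 0.34. No marker of these 2 lists was at 0, and their part was not tested. Among the cytosolic members the values ran from −0.39 for Rps27 (SE 0.22) to 0.29 for Rpl34 (SE 0.20), both of them genes with few counts. The median of the members was −0.063 without Leptin-antibiotic 3 and 0.036 without Leptin-antibiotic 2. Whether the leptin effect differed between antibiotic and water was tested as an interaction: no member or other gene passed in edgeR (0%), no member passed in DESeq2 or limma voom, and 1 had an unadjusted p under 0.05, against 6.38% of all genes. The interaction was negative for 70 members against 50.8% of all genes, with a median of −0.14, and Rpl23a, which sits by the exit tunnel, was lowest at −0.49 (SE 0.23). Without Saline-water 13 its value was −0.34, and the median of the members was −0.096 with 16 positive. Without Saline-antibiotic 1 the median was −0.093. These comparisons draw on the same 24 libraries of set MT, so their values are not independent of each other.

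**Figure D3:**
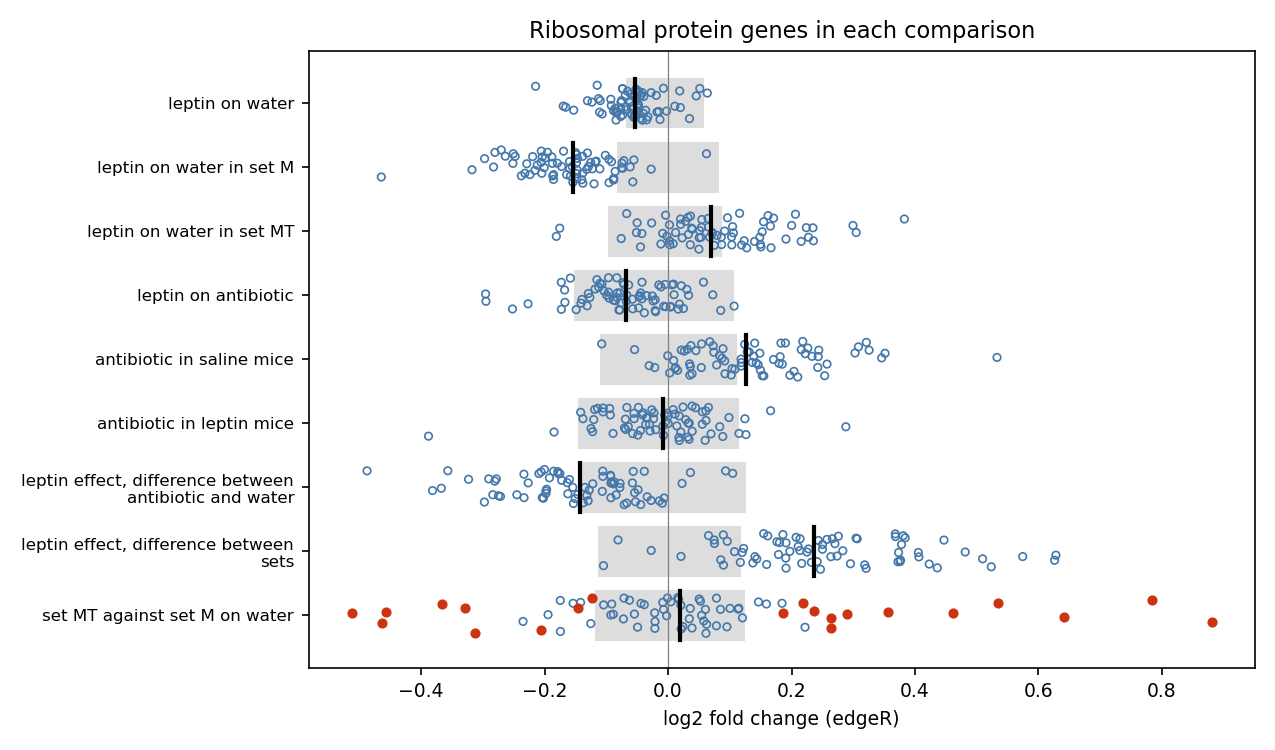
Fitted log2 fold change (horizontal) of the 74 ribosomal protein genes in each of 9 comparisons (rows), open circles for genes not called and filled red for those with an adjusted p under 0.05; the black line is the median of the 74 and the grey box the middle 50% of all genes tested. Filled points occur in the last row, the comparison of the 2 sets, and in no other.

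The largest differences lay between the sets. With injection as a term, 21 of 74 members differed between the water libraries of set MT and set M, or 28.4%, where 28.3% of all genes did. Of these, 12 were higher and 9 lower in set MT, against 14.4% and 13.9% of all genes, and the median of the 74 was 0.019. It was −0.011 without Leptin-water 10 and 0.065 without Saline-water 13. The share called was thus that of the whole table, and the members went in both directions. The labels do not say in what the sets differ, and what produced these differences cannot be told apart here.

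Rps12 differed most. In set M it had a lowest value of 25.9, a median of 35.3 and a highest of 46.9 CPM in Saline-water, and 28.6, 31.1 and 35.8 in Leptin-water. In set MT it had 50.0, 59.8 and 84.5 in Saline-water, and 50.5, 62.7 and 84.0 in Leptin-water. The sets did not overlap, and set MT exceeded set M by 0.88 log2 units (SE 0.089, adjusted p = 2.22e-08 by edgeR). It lies at chr10:23785183-23787275 on the minus strand (GRCm38), hosts 3 small nucleolar RNAs and shares 85.4% of its 50-base words with other genes.

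Rpl10, which completes the large subunit and lies near the peptidyl transferase centre, was the other member without overlap, as in 1.03% of all genes. It had 69.0, 84.8 and 103 CPM (lowest, median, highest) in Saline-water and 73.4, 76.2 and 81.6 in Leptin-water of set M. In set MT it had 109, 130 and 162 in Saline-water and 134, 147 and 170 in Leptin-water. The difference came to 0.78 log2 units (SE 0.065, adjusted p = 3.96e-10). It lies at chrX:74270812-74273135 on the plus strand and shares 92.1% of its words.

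Rpl35a, another gene of Diamond-Blackfan anaemia, had 46.8 ± 5.92 CPM in set M (SD, n = 15) and 72.8 ± 8.55 in set MT (n = 12). Of the 12 libraries of set MT, 11 lay above all of set M, and the fitted difference was 0.64 log2 units (SE 0.065, adjusted p = 2.43e-08). Rps26 (0.53, SE 0.12), Rpl35 (0.46, SE 0.098), Rpl17 (0.36, SE 0.058) and Rpl29 (0.29, SE 0.093) were higher by less. Rpl21 (0.26), Rpl27a (0.26), Rps16 (0.24), Rps6 (0.22) and Rps7 (0.19) completed the 12. Rps26 and Rpl35 were also the members highest in Saline-water 13, and without that library their values were 0.42 and 0.35, both still called.

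On the lower side, Rpl34 (−0.51, SE 0.13) rested on few counts. Rpl41 had 128 ± 13.3 CPM in set M (SD, n = 15) and 93.0 ± 15.9 in set MT (n = 12), where 10 of 12 libraries lay below all of set M. The fitted difference was −0.46 log2 units (SE 0.080, adjusted p = 8.29e-05 by edgeR). Rpl38, known for its part in the translation of Hox mRNAs, fell by 0.46 (SE 0.11) on the log2 scale, from 43.6 ± 6.66 to 31.7 ± 6.85 CPM. Rps28 (−0.37, SE 0.091), Rpl7a (−0.33, SE 0.087) and Rpl12 (−0.31, SE 0.057) followed. Rps27a, made as a fusion with ubiquitin (−0.21), Rplp2 (−0.15) and Rpl10a (−0.12) were called near the threshold, with adjusted p-values of 0.0487, 0.0474 and 0.0464. None of them was called lower without Saline-water 13.

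**Figure D4:**
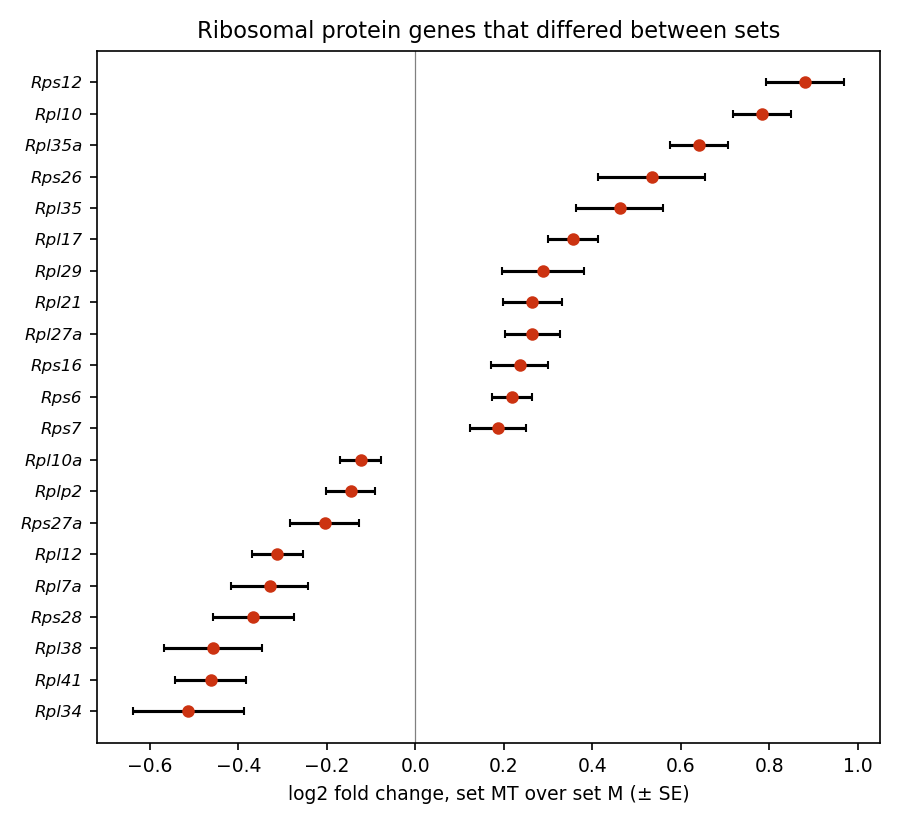
Log2 fold change of set MT over set M in the water libraries (points) with its standard error (bars) for the 21 ribosomal protein genes that passed an adjusted p of 0.05. Rps12, Rpl10 and Rpl35a lead the 12 higher genes, and Rpl34, Rpl41 and Rpl38 the 9 lower ones.

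Leaving out Saline-water 13 shifted the balance: 23 members were then called, 17 higher and 6 lower. Of all genes 4712 were called without that library and 4627 with it. Their split by direction without it was not counted. Rpl41 was then −0.39, Rpl38 −0.37, Rps28 −0.29 and Rpl7a −0.26, each still called. With Rpl34 (−0.47) and Rpl12 (−0.31) they made up the 6 lower members, so the calls of Rps27a, Rplp2 and Rpl10a depended on that library. Taken within each injection, 16 of 74 members passed among saline libraries (6 higher, 10 lower) and 18 among leptin libraries (16 higher, 2 lower). In either direction 17.3% and 14.5% of all genes passed. The split of all genes by direction was not counted here either. The 21 members had the same sign in both, and 12 and 14 of them passed. They were chosen by the pooled difference over these same libraries, which largely fixes that agreement in advance, so it is no separate support. The 12 higher members had a median transcript length of 810 bases and a GC content of 50.5%, and the 9 lower ones 509 bases and 54.3%. They shared 62.9% and 65.1% of their words. Small nucleolar RNAs lay within 6 of the 12 and 3 of the 9.

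**Figure D5:**
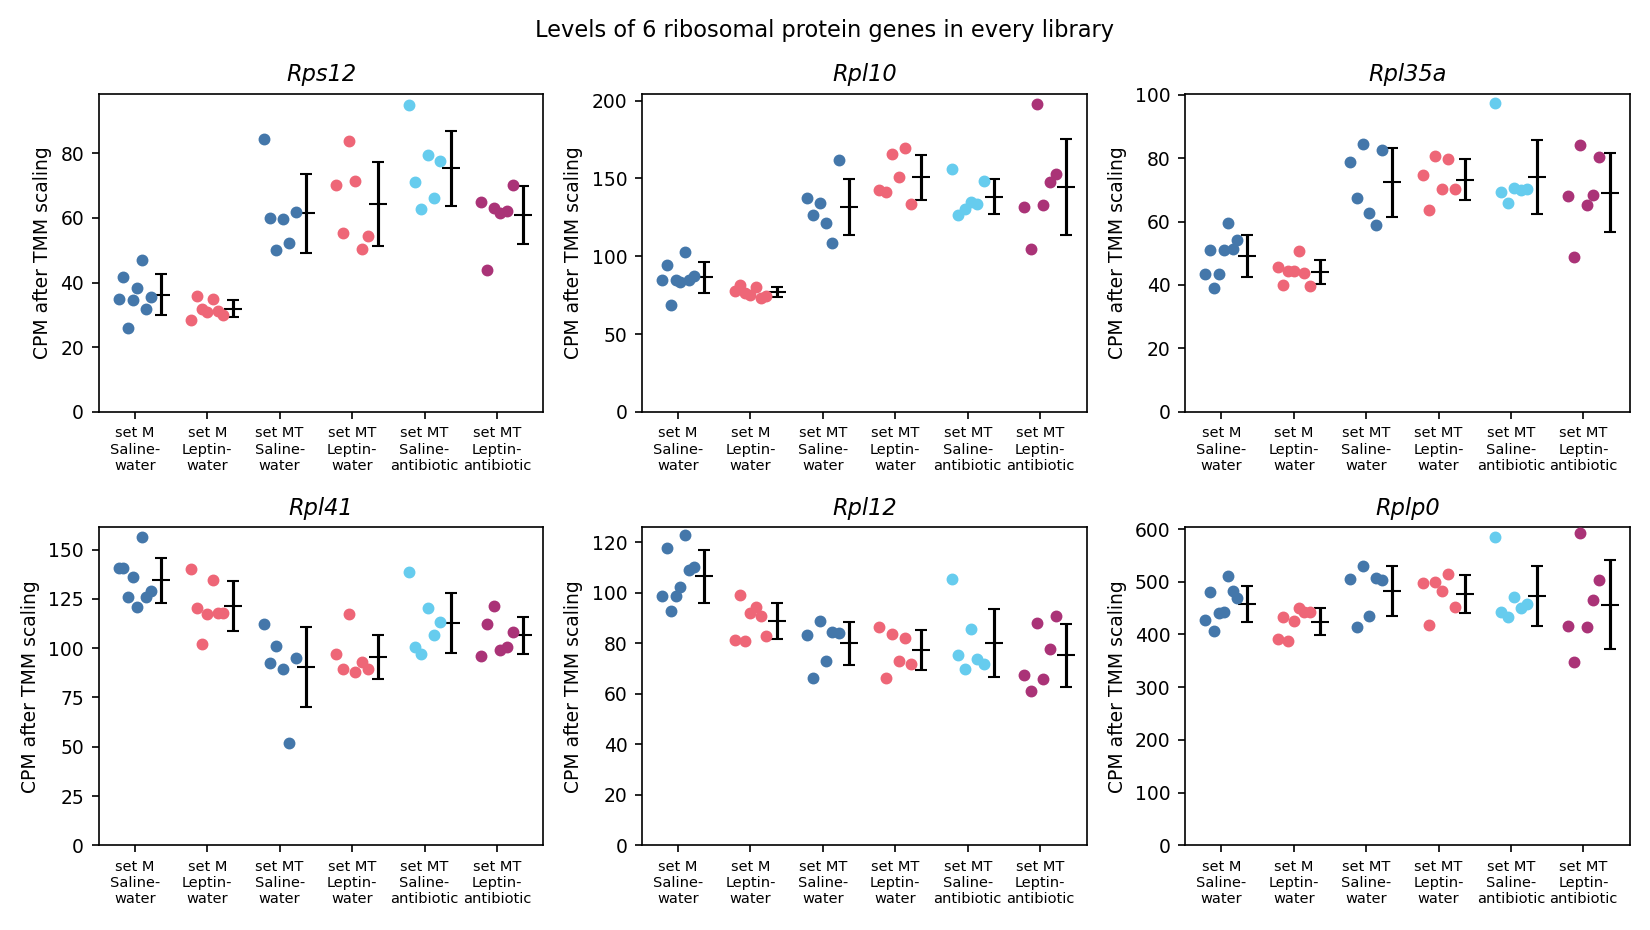
CPM after TMM scaling of Rps12, Rpl10, Rpl35a, Rpl41, Rpl12 and Rplp0 (panels) in every library (points) by set and group, with the mean ± SD beside each group; each vertical axis starts at 0. The water libraries of set MT lie above every library of set M for Rps12 and Rpl10, those for Rpl41 lie mostly below, and Rplp0 overlaps throughout.

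The antibiotic groups exist in set MT alone, and Rps12, Rpl10 and Rplp0 are given as examples. Rpl41, higher on antibiotic in saline mice as described above, did not pass. Rps12 had 75.4 ± 11.6 CPM in Saline-antibiotic and 61.0 ± 8.96 in Leptin-antibiotic, and Rpl10 had 138 ± 11.4 and 145 ± 31.1 (SD, n = 6 each). Rplp0 had 458 ± 34.2 (n = 8) and 425 ± 25.1 (n = 7) in Saline-water and Leptin-water of set M. In set MT it had 483 ± 46.7, 478 ± 36, 473 ± 56.2 and 456 ± 84.7 across the 4 groups (n = 6 each), less apart than their spread.

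Ribosomal proteins under other symbols split between the sets as well. Rpsa, the laminin receptor homologue of the small subunit, was higher by 0.50 log2 units in set MT (SE 0.11, adjusted p = 7.85e-04) and Fau gave −0.29 (SE 0.074, adjusted p = 0.00410), while Rps3a1 (0.074) did not pass. Rpsa reached 732 CPM in 1 Saline-water library of set MT, against a group median of 309.8. In the treatment comparisons none of these passed. Of 5 measured paralogs, Rpl22l1, the counterpart of Rpl22, fell by 0.48 (SE 0.13) between the sets and was the 1 that passed. Saline-water 13 had a mean of 7.60 log2 CPM for the genes under other symbols, the highest of its group in set MT. Its paralog mean of 4.24 was the lowest of the 39 libraries. Set differences of Rpsa, Fau and Rpl22l1 without that library are not given here.

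The lists of ribosome supply gave these counts, all of them chosen with earlier results known. Between the sets, where 14.4% of all genes rose and 13.9% fell, 12 of 72 ribosome biogenesis genes (16.7%) rose and 3 fell, with Nmd3, the export adaptor that Rpl10 releases, at 0.31 and Ubtf, a factor of ribosomal RNA transcription, at −0.19. Of 42 translation factors 16 (38.1%) rose and 1 fell, with Eif4e, which binds the cap, at 0.24. Of 32 genes around mTORC1 and LARP1 5 (15.6%) rose and 8 (25%) fell, with Larp1 at −0.21 and Rps6kb1, a kinase of Rps6, at 0.26. Of 13 regulators of these genes 2 (15.4%) rose, Gabpa (0.27), an ETS factor, and Sp1 (0.16), which binds GC boxes.

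In the treatment comparisons the same lists held few calls. Mdm2, the ubiquitin ligase that Rpl5 and Rpl11 bind, rose with leptin on water by 0.29 (SE 0.059, adjusted p = 0.0269) and on antibiotic by 0.44 (SE 0.094, adjusted p = 0.0311). Myc had −0.11 (SE 0.072) with leptin on water and did not pass. In leptin mice on antibiotic the translation factor Eif4h (0.27) and Lamtor4 (0.29), part of the anchor of mTORC1 at the lysosome, were higher than on water. No biogenesis gene passed in a treatment comparison, with medians of −0.019 for leptin on water, −0.15 for leptin on antibiotic and 0.13 for antibiotic in saline mice.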

How the data were processed

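The authors deposited 1 table, described as filtered, of raw counts for each gene symbol, for 16358 genes and 39 libraries. Per the labels' protocols, total RNA (150 ng) was depleted of ribosomal RNA, made into strand-specific libraries and read as paired ends of 50 bases. Tools named in the submitters' processing notes are HISAT2 and featureCounts with build mm10, FastQC, and edgeR 3.42.0. Not given in the sources used here were the annotation, the strand setting, the filter of the table and how reads with several matches were counted.

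The test was the quasi-likelihood F test of edgeR 4.0.16 in R 4.3.3 (TMM factors, filterByExpr, Benjamini-Hochberg over all genes, threshold 0.05), and all 74 members passed the filter in every comparison. The pooled water comparison and the set comparison used 27 water libraries with set and injection as terms, set M was fitted alone (15 libraries), and the other contrasts came from 1 fit of set MT (24 libraries). Dividing each log2 fold change by the root of its F gave the SE. CPM are TMM-scaled, and CPM per kb use the GENCODE vM21 transcript with the longest coding sequence. Alternatives were DESeq2 1.42.0, limma 3.58.1 voom with quality weights, upper quartile factors, scaling without the members and Rn45s, no filter, leaving out the 6 libraries with a pancreas mean above 4 log2 CPM, a replicate block, and leaving out each library in turn. The scripts were tested on simulated data. Within sets and groups, all 109 library pairs differed beyond counting noise (chi-square per degree of freedom 19.8 to 202).

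Named members are, per comparison, the 4 highest and 4 lowest log2 fold changes and up to 8 called by p, plus members of known role and those extreme in level or spread. The members and lists were chosen with earlier results of these data known. The single results of some of these genes are not reported here.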

Additional observations from a re-analysis of the deposited data

Results flagged for a closer look

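Within a set and group, 23 of 192 groups of libraries tested for the members with known roles or a difference between sets had 1 library far from the rest (its gap to the nearest other library, over the whole range, exceeded Dixon's 95% critical value). Chance gives about 1 in 20, or 9.6. Members often moved together within a library, so the groups are not independent and the excess over 9.6 is not a test. Saline-antibiotic 1 was the high library in 7 of them, with 585 CPM for Rplp0, 292.5 for Rplp1, 91.1 for Rpl11, 70.6 for Rpl22, 280.4 for Rpl13a, 155.5 for Rpl27a and 97.4 for Rpl35a. Saline-water 13 was apart in 5, low for Rpl41 (52.0 CPM) and Rps28 (19.3 CPM) and high for Rpl29 (50.1 CPM), Rpl35 (198 CPM) and Rps26 (218 CPM). Leptin-antibiotic 3 was the high library in 4, with 99.5 CPM for Rps19, 50.7 for Rps28, 63.0 for Rpl7a and 157 for Rps26. Leptin-antibiotic 2 was low for Rpl22 (38.98 CPM) and Rps12 (43.9 CPM). The others were Rplp2 in Leptin-water 9 (114 CPM), Rpl41 in Leptin-water 10 (117 CPM), Rpl10a in Leptin-water 3 (84.5 CPM), Rpl35 in Leptin-water 1 (64.4 CPM) and Rps12 in Saline-water 9 (84.5 CPM).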

How the results depend on the processing

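The count of members called stayed at 0 in every treatment comparison under every alternative run, apart from leptin on water in set M, where DESeq2 called 6 and the fits without 1 library called 0 to 1 (1 without Saline-water 5); Rpl36, Rps19 and Rps18 passed by DESeq2. Between the sets 18 to 24 members were called. DESeq2 called more genes of the whole table than edgeR: 173 for leptin on water, 443 for leptin on antibiotic, 183 for antibiotic in saline mice and 780 for antibiotic in leptin mice. The members' share of counts in set M was 0.812% in Saline-water and 0.727% in Leptin-water with Rn45s included, and 0.808% and 0.732% over TMM-scaled totals. In Leptin-water of set MT it was 0.823% and 0.804%. The replicate numbers gave no clear sign of a pairing: same-numbered deviations correlated at −0.296 to 0.282 on water and −0.388 to 0.636 on antibiotic. Such correlations cannot exclude a pairing. With the replicate block no member was called, and the medians were −0.050, −0.15 in set M, 0.084 in set MT and −0.085 on antibiotic. Of all genes it called 0, 4, 0 and 13.

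Single members turned sign, and the cause was not tested. With limma voom the log2 fold changes were −0.052 for Rpl39, −0.015 for Rpl37a and −0.0068 for Rpl7a (leptin on water), 0.021 for Rpl30 (set M), 0.14 for Rpl35 (set MT) and 0.16 for Rpl35 (antibiotic in saline mice). With upper quartile factors Rpl5 was −0.026 (leptin effect between sets). Without the libraries high in pancreas genes, Rpl30, whose reported values were −0.23, 0.35 and −0.38 in these 3 comparisons, was 0.33, Rpl24 −0.037 and Rpl10 −0.043 (leptin on antibiotic), Rpl35 0.0017 and Rpl30 −0.11 (antibiotic in saline mice), and Rpl30 0.11 (leptin effect, antibiotic minus water). With the block Rpl30 was −0.0089 (water) and 0.021 (set M). Leaving out 1 library gave ranges for leptin on water of −0.0063 to 0.095 for Rpl30, −0.035 to 0.083 for Rpl37a and −0.065 to 0.075 for Rpl39. In set M they were −0.14 to 0.053 for Rpl30 and −0.017 to 0.12 for Rpl34, and in set MT −0.17 to 0.16 for Rpl35. On antibiotic they were −0.039 to 0.15 for Rpl10, −0.029 to 0.11 for Rpl24 and −0.046 to 0.17 for Rpl39. For the antibiotic in saline mice they were −0.13 to 0.21 for Rpl35 and −0.091 to 0.0011 for Rplp0. For the leptin effect, antibiotic minus water, they were −0.037 to 0.13 for Rps21, and between sets −0.057 to 0.064 for Rpl5 and −0.089 to 0.0096 for Rps21. Depth limits Rpl30, Rpl34 and Rps27, with 11 to 85 counts per library.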
